A study of Rattus norvegicus with 15 samples.

Results

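The contractile and stress fibre genes are a set of 34 genes for smooth muscle actins, calponins, transgelins, tropomyosins, non-muscle and smooth muscle myosin subunits, filament crosslinkers, focal adhesion proteins and serum response factor. They were taken by gene symbol from an expression table of 12169 genes. Every one of the 34 symbols was found on 1 row, and all 34 passed the filter of at least 1 FPKM in at least 3 of 15 libraries, as 11515 genes did in all. FPKM are fragments scaled to transcript length and library total, so levels of different genes may be compared per length. The 34 genes ranged from 1.52 FPKM (Mylk in shLuci+OGD replicate 2) to 5657 FPKM (Acta2 in BMSC replicate 2), and together they made up between 2.99% and 5.26% of a library's summed FPKM.

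Stress fibres are bundles of actin filaments and myosin that pull on the focal adhesions by which a cell holds to its substrate. Smooth muscle builds a related apparatus from its own actin isoforms, and cultured mesenchymal stem cells express many of the same genes. Myosin is switched on when its light chain is phosphorylated by Mylk, and calponin, caldesmon and tropomyosin on the actin filament adjust that interaction. Many of these genes are known targets of serum response factor, whose cofactors are held in the cytoplasm by unpolymerised actin.

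The cells sequenced were mesenchymal stem cells grown from the marrow of the femur (strain Sprague Dawley, rat) and used at passages 3 to 5. The 15 libraries form 5 groups of 3. BMSC are cells without virus and without deprivation. The group shLuci received a lentivirus named for a hairpin against luciferase, and shRac1 a lentivirus named for a hairpin against Rac1, a small GTPase that organises actin at the cell edge. The groups shLuci+OGD and shRac1+OGD received the same viruses and then oxygen and glucose deprivation (OGD), 12 h in sugar-free medium at 1% O2, followed by 24 h of reoxygenation. Uninfected cells with OGD were not analysed here, so each OGD group carries a virus. The labels do not say that the 3 libraries of a group came from separate cultures or animals, and every p-value below therefore measures only the spread between these samples. In bulk RNA of this kind, fewer cells that express a gene and less RNA per cell cannot be told apart.

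Rac1 itself lay between 139.3 and 167.6 FPKM in the 15 libraries. The fold of the libraries labelled shRac1 against those labelled shLuci was 0.942 (95% confidence interval 0.839 to 1.06), with a two-sided p of 0.3 by exact permutation, where 3 libraries against 3 allow none below 0.1, and an adjusted p of 0.577 by limma. After OGD it was 0.998 (0.889 to 1.12), with an exact permutation p of 1 and an adjusted p of 1 by limma. No reduction of the targeted transcript was detected in the libraries labelled shRac1, so every direction below rests on the labels. BMSC replicate 2 stood apart, with a summed FPKM of 628685 against 463945 to 516495 elsewhere, 144 genes at 0 against 42 to 78, and a mean correlation across genes with its own group of 0.915 against at least 0.949. Of 7 surface markers listed for these stem cells, Thy1, Cd44, Itgb1 and Pdgfrb were in the table, with summed levels of 818 to 1353 FPKM, and the other 3 were not analysed here. Of 8 blood markers, Cd14, Cd68 and Fcer1g were in the table and summed to 7.92 to 15.3 FPKM, and of 5 endothelial markers Tek was, at 0.287 to 0.753 FPKM. Of 8 markers of striated muscle, Tnnt2, Tnnt3, Acta1 and Des were in the table and summed to 6.13 to 21.3 FPKM.

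**Figure D1:**
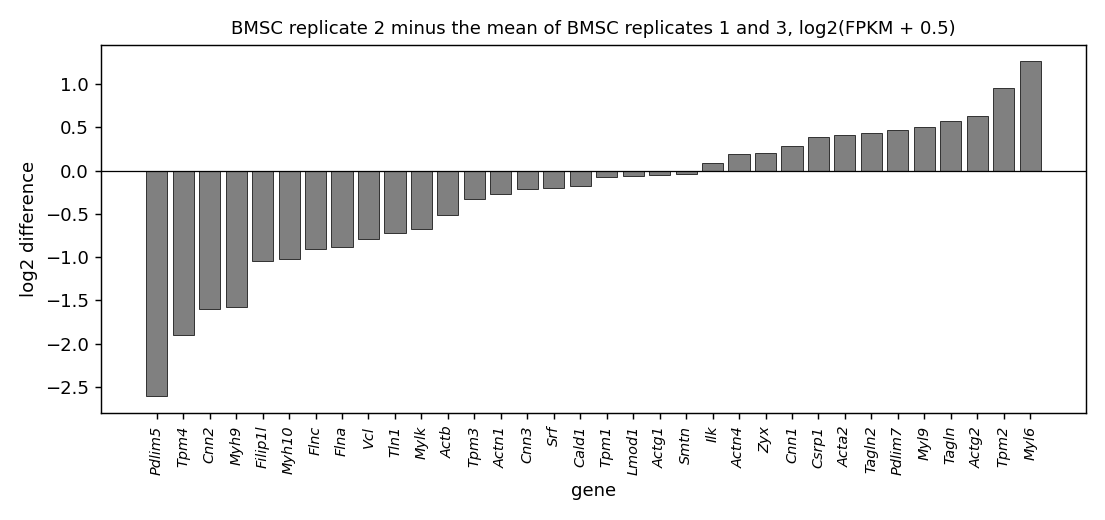
For each of the 34 genes on the x axis, the y axis gives log2(FPKM + 0.5) in BMSC replicate 2 minus the mean of BMSC replicates 1 and 3. The library lay below both other BMSC libraries for 19 genes and above both for 13, from -2.61 for Pdlim5 to 1.26 for Myl6.

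BMSC replicate 2 was lower than all 14 other libraries for 11 of the 34 genes and higher than all of them for 11. No such count over all genes is given here. By the values above, this library stood apart over all genes as well. The plot of its differences shows 6 genes more than 1 log2 unit below the other BMSC libraries: Pdlim5 (-2.61), Tpm4 (-1.90), Cnn2 (-1.60), Myh9 (-1.57), Filip1l (-1.05) and Myh10 (-1.02). Myl6, a myosin essential light chain, was 1.26 above them. Each count over the 34 genes in a pair of groups or the interaction is therefore also given without that library, in a fit of the other 14, beside the share of all genes called there. Counts under the other settings are given without such a share. They show how the count moves and are not set against all genes.

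**Figure D2:**
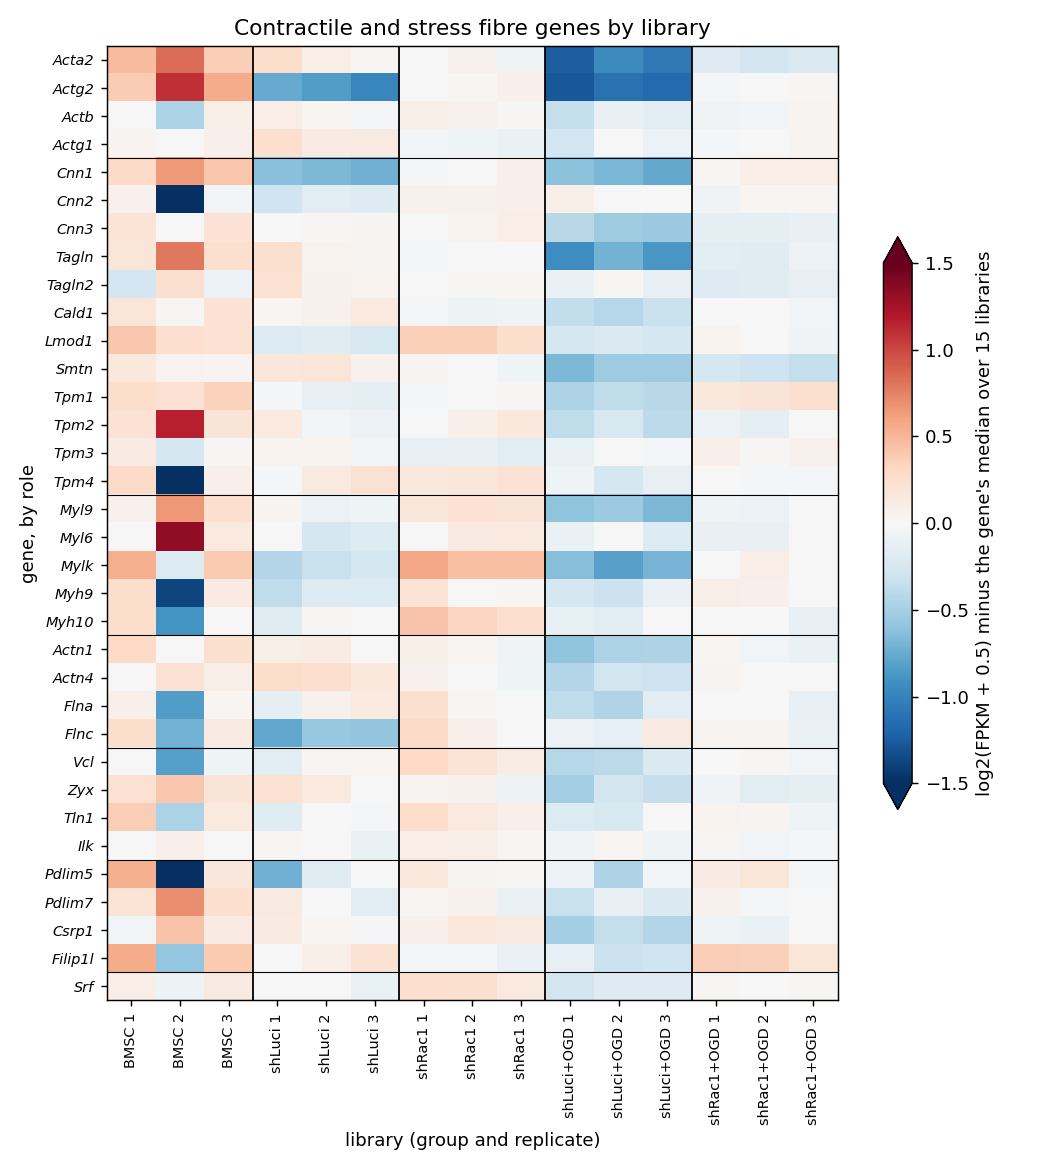
Each row is 1 of the 34 genes, ordered by role, and each column 1 of the 15 libraries, and colour gives log2(FPKM + 0.5) minus the gene's median over the 15 libraries, with values beyond 1.5 either way drawn in the end colours. The columns of shLuci+OGD are the lowest of the 5 groups by mean for 25 genes, and the column of BMSC replicate 2 departs from its neighbours in both directions.

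Ranked by group means of log2(FPKM + 0.5), shLuci+OGD was lowest for 25 of the 34 genes and highest for 0. BMSC was highest for 14 genes, shRac1 for 13, shLuci for 4 and shRac1+OGD for 3. These ranks are not given over all genes here, so they describe the set alone. The distance between the highest and lowest group mean ran from 0.10 on the log2 scale for Ilk, the integrin-linked kinase, to 1.86 for Actg2. The map of the 34 genes by library shows these ranks together.

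Actins came first by level. Acta2, the smooth muscle alpha actin (chromosome 1, 252537615 to 252550394 in the authors' unnamed build), stood at 4400.0, 5657 and 4110.4 FPKM in BMSC, 3815, 3389 and 3205 in shLuci, 3172, 3306 and 3025 in shRac1, 1349.6, 1642 and 1504 in shLuci+OGD and 2771, 2595 and 2736 in shRac1+OGD. The shLuci+OGD libraries lay below the 12 others, the shRac1+OGD libraries came next, and BMSC was highest with no overlap with any other group. Actg2, the gamma actin of visceral smooth muscle (chromosome 4, 115215060 to 115239723), stood at 268, 441 and 303 FPKM in BMSC, 122, 115 and 104 in shLuci, 208, 211 and 218 in shRac1, 85.4, 94.8 and 91.6 in shLuci+OGD and 202, 206 and 209 in shRac1+OGD. Its shLuci and shLuci+OGD libraries did not overlap with the 9 others, while shRac1 and shRac1+OGD occupied nearly the same range.

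Actb and Actg1 encode the cytoplasmic beta and gamma actins found in most cells. Actb (chromosome 12, 13715843 to 13718841) stood at 4295, 3085 and 4548 FPKM in BMSC, 4591, 4391 and 4233 in shLuci, 4578, 4499.7 and 4348 in shRac1, 3362, 3959.9 and 3856 in shLuci+OGD and 4157, 4162 and 4405 in shRac1+OGD. Its groups overlapped except that shLuci+OGD lay below shLuci, shRac1 and shRac1+OGD, and it was called in 0 of the 8 pairs of groups compared. Actg1 stood at 711, 695 and 731 FPKM in BMSC, 823, 752 and 757 in shLuci, 674, 664 and 648 in shRac1, 566, 692 and 649.9 in shLuci+OGD and 683, 689 and 714 in shRac1+OGD. Only its fall from shLuci to shLuci+OGD was called among those 8 pairs. The Actg1 row lies on chromosome 3 (75643054 to 75644954), whereas RefSeq's rat assembly GRCr8 places Actg1 on chromosome 10, so its values are uncertain. The other 33 genes lie on the same chromosome in both. The coding sequences of the 4 actins are closely alike and the authors' handling of reads that fit several of them is not stated, so the split among them is uncertain too.

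**Figure D3:**
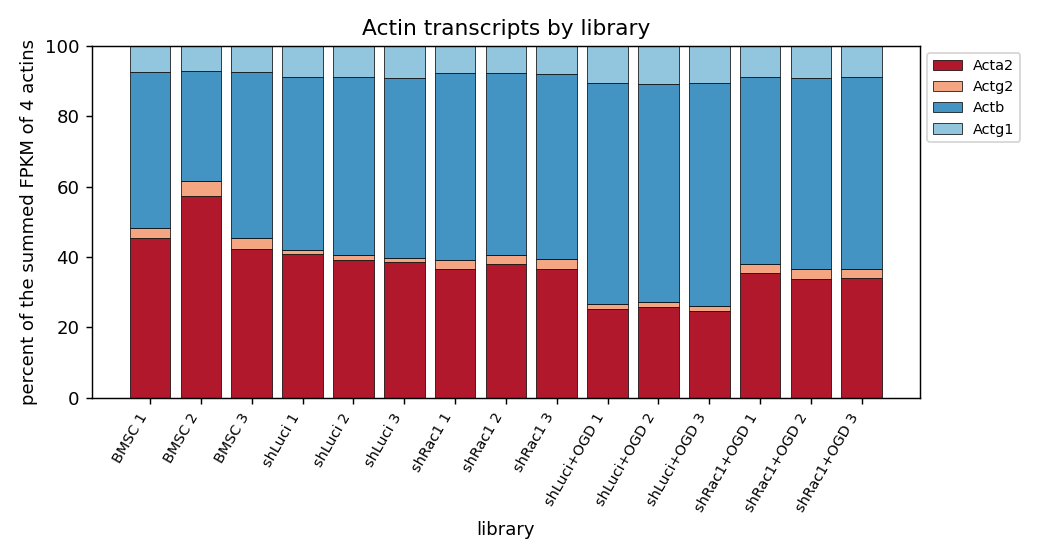
Each bar is 1 of the 15 libraries and shows what percent of the summed FPKM of Acta2, Actg2, Actb and Actg1 each of the 4 genes made up. Acta2 made up 24.6% to 25.7% in shLuci+OGD and 33.9% to 57.3% in the other 12 libraries.

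As a share of the 4 actins, Acta2 made up 45.5%, 57.3% and 42.4% in BMSC, 40.8%, 39.2% and 38.6% in shLuci and 36.7%, 38.1% and 36.7% in shRac1. It made up 25.2%, 25.7% and 24.6% in shLuci+OGD and 35.5%, 33.9% and 33.9% in shRac1+OGD. In the plot of actin shares, the shLuci+OGD libraries lie below the 12 others. A share within a library shows an unequal change among the actins and does not depend on the library's scale.

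Acta2 and Srf, the gene for serum response factor, are shown with 3 calponin and actin genes because SRF binds a motif known as the CArG box. It is CC, then a core of A or T, then GG, and reads the same on both strands. The stretches run from 150 to 31 bases before each gene's start in RefSeq's GRCr8, on the strand of the gene, with matches that have at most 1 G or C in the core in capitals.
Acta2 (chr1:241172534-241172653, minus strand): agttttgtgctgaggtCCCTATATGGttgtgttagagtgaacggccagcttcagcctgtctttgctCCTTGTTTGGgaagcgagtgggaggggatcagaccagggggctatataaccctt
Actg2 (chr4:117594070-117594189, minus strand): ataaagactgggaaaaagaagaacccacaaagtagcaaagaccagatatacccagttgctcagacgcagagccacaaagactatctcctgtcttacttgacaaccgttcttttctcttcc
Cnn1 (chr8:28908287-28908406, plus strand): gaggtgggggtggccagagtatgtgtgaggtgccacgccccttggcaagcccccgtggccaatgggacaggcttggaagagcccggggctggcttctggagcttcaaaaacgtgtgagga
Cnn2 (chr7:10370343-10370462, minus strand): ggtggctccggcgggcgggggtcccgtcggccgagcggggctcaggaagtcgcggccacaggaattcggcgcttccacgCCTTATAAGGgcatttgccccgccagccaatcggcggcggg
Srf (chr9:21923926-21924045, plus strand): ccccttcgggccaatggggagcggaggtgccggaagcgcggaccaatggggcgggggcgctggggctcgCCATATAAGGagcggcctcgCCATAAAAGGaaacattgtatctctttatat

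Acta2 had matches starting 134 and 84 bases before its start, each with 1 G or C in the core, Cnn2 1 match at 71, and Srf 2 matches at 81 and 61. The Actg2 and Cnn1 stretches held no match, which says only that these letters are not in this window. RefSeq windows of 250 bases before to 50 after the start were found for 29 of the 34 genes. There was none for Actb, Tagln, Myl9, Actn4 and Lmod1, so the shares below leave these genes out. A match with a core of A and T alone was in 3 of these 29 windows (10.3%: Actg1, Cnn2 and Srf), against 485 of 27457 genes (1.77%). With at most 1 G or C in the core it was in 7 of 29 (24.1%: Acta2, Actg1, Cnn2, Tpm3, Zyx, Filip1l and Srf), against 2769 of 27457 (10.1%). The Actg1 window is that of RefSeq's gene on chromosome 10, whereas the Actg1 row measured here lies on chromosome 3. Cnn2 lies on the minus strand in GRCr8 and on the plus strand in the authors' build. A match is a description of the letters and not a measured site.

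Calponins, transgelins, tropomyosins and their companions sit along the actin filament. Cnn1, the calponin of differentiated smooth muscle (chromosome 8, 23113048 to 23121761), stood at 491, 625 and 537 FPKM in BMSC, 260.4, 250.5 and 243 in shLuci, 393, 401 and 424 in shRac1, 262, 249 and 236 in shLuci+OGD and 410.2, 429 and 431 in shRac1+OGD. As for Actg2, shLuci and shLuci+OGD were low with no overlap with the 9 other libraries, and the 2 low groups overlapped each other. Cnn3, the acidic calponin (chromosome 2, 225005019 to 225036188), stood at 316, 274 and 318 FPKM in BMSC, 276, 279 and 283 in shLuci, 274, 284 and 294 in shRac1, 205, 189 and 187 in shLuci+OGD and 247, 249 and 254 in shRac1+OGD. Both OGD groups lay below every undeprived library, and shLuci+OGD lay lowest.

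Tagln, the actin-bundling transgelin or SM22 alpha (chromosome 8, 50222896 to 50231357), stood at 2819.7, 4295 and 2942 FPKM in BMSC, 2920.4, 2584 and 2559 in shLuci, 2439.5, 2488 and 2481 in shRac1, 1298, 1519.9 and 1358 in shLuci+OGD and 2225, 2184 and 2337 in shRac1+OGD. Its order of groups was that of Acta2, with shLuci+OGD below the 12 others and BMSC replicate 2 at the top. Cald1, caldesmon (chromosome 4, 62220736 to 62291489), stood at 508, 456 and 523 FPKM in BMSC, 460.0, 470.5 and 498 in shLuci, 441, 426 and 429 in shRac1, 348, 333 and 357 in shLuci+OGD and 452, 449 and 437 in shRac1+OGD. Its shLuci+OGD libraries lay below all others, and the remaining groups spanned a narrow range.

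Lmod1, leiomodin, which nucleates actin filaments in smooth muscle (chromosome 13, 52147555 to 52190228), stood at 65.5, 58.9 and 58.0 FPKM in BMSC, 43.0, 43.4 and 41.7 in shLuci, 63.7, 63.4 and 59.2 in shRac1, 41.2, 42.5 and 41.3 in shLuci+OGD and 51.4, 49.4 and 47.6 in shRac1+OGD. The shLuci and shLuci+OGD libraries lay below the 9 others, and shRac1+OGD lay between them and shRac1. Smtn, smoothelin, a filament-binding protein (chromosome 14, 83755142 to 83776863), stood at 129, 121 and 119.9 FPKM in BMSC, 130.4, 132 and 121 in shLuci, 119, 116 and 112 in shRac1, 72.9, 80.0 and 80.3 in shLuci+OGD and 96.6, 93.9 and 90.5 in shRac1+OGD. Both OGD groups lay below every undeprived library, and shLuci+OGD lay lowest.

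The plot of 9 genes by group shows these levels with their means and SDs. Tpm1, alpha tropomyosin, which lies along the actin filament (chromosome 8, 72814740 to 72842228), stood at 839.6, 817 and 886 FPKM in BMSC, 685, 642 and 638 in shLuci, 691, 699 and 709 in shRac1, 505, 535 and 522 in shLuci+OGD and 781, 802 and 825 in shRac1+OGD. Its shRac1+OGD libraries lay above both undeprived infected groups. The other tropomyosins showed less order by group. Tpm2 ran from 869.8 to 2563 FPKM, Tpm3 from 156 to 204 FPKM and Tpm4 from 284 to 1141 FPKM over the 15 libraries. Tpm2 was lowest in shLuci+OGD by every library, and the lowest Tpm3 and Tpm4 values were in BMSC replicate 2. Cnn2, the calponin of many non-muscle cells, ran from 187 to 595 FPKM, with 187 in BMSC replicate 2 as its lowest, and Tagln2, a widely expressed transgelin, from 537 to 779.5 FPKM.

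**Figure D4:**
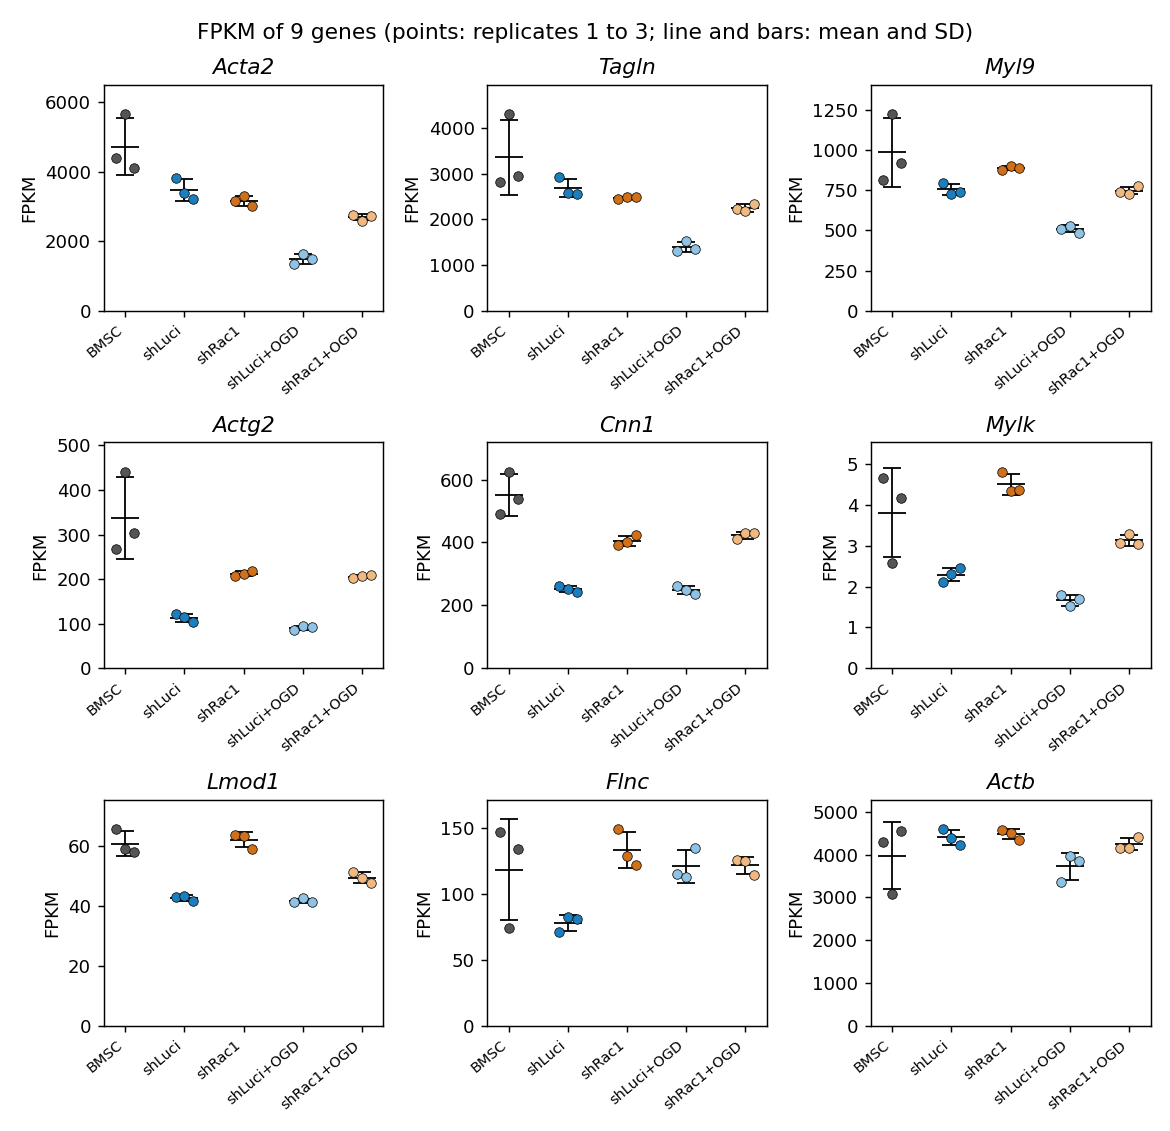
Each panel gives FPKM on the y axis for the 3 libraries of each of the 5 groups on the x axis, with a line and bars for the group mean and SD, for 9 genes chosen after their values were seen. Acta2 lies between 1349.6 and 1642 FPKM in shLuci+OGD and at or above 2595 FPKM in the other groups, and Cnn1 lies between 236 and 262 FPKM in both shLuci groups.

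Myosin is the motor of the stress fibre. Myl9, its regulatory light chain in smooth muscle and non-muscle cells (chromosome 3, 152857592 to 152863960), stood at 811, 1221 and 922 FPKM in BMSC, 796, 728 and 739 in shLuci, 878, 898 and 887 in shRac1, 511, 529.7 and 486 in shLuci+OGD and 739, 729 and 775 in shRac1+OGD. The shLuci+OGD libraries lay below the 12 others. Mylk, the kinase that phosphorylates that light chain (chromosome 11, 69013050 to 69223158), stood at 4.67, 2.59 and 4.18 FPKM in BMSC, 2.12, 2.32 and 2.45 in shLuci, 4.82, 4.35 and 4.37 in shRac1, 1.79, 1.52 and 1.69 in shLuci+OGD and 3.08, 3.30 and 3.05 in shRac1+OGD. At these low levels the shLuci and shLuci+OGD libraries still lay below the 9 others, and the closest of those was BMSC replicate 2. The myosin heavy chains of non-muscle cells ran from 148 to 463 FPKM (Myh9) and 55.5 to 139.8 FPKM (Myh10), and Myl6 from 629.7 to 1899 FPKM. These 3 genes were called in 0 of the 8 pairs, and BMSC replicate 2 held the lowest value of both heavy chains and the highest of Myl6.

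Crosslinkers bind actin filaments to each other. Actn1, alpha-actinin 1 (chromosome 6, 103375799 to 103470555), stood at 644, 523 and 621 FPKM in BMSC, 557, 568 and 525 in shLuci, 557, 535 and 505 in shRac1, 346, 378 and 379 in shLuci+OGD and 537, 511 and 488 in shRac1+OGD. Actn4, alpha-actinin 4 (chromosome 1, 87078020 to 87147333), stood at 439, 518 and 468 FPKM in BMSC, 534, 525 and 490.3 in shLuci, 459.5, 441 and 421 in shRac1, 325, 365 and 356 in shLuci+OGD and 452, 438 and 439 in shRac1+OGD. In both genes the shLuci+OGD libraries lay below the 12 others. Flnc, the filamin of muscle (chromosome 4, 56711049 to 56738791), stood at 146, 74.4 and 134 FPKM in BMSC, 71.1, 82.1 and 80.8 in shLuci, 149, 129 and 122 in shRac1, 115, 112 and 135 in shLuci+OGD and 126, 125 and 114 in shRac1+OGD. It departed from the alpha-actinins, since its shLuci libraries lay below all others but BMSC replicate 2, and its shLuci+OGD libraries did not. Flna, the filamin of most cells, ran from 345 to 725 FPKM and was called in 0 pairs.

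Focal adhesions anchor the fibres to the membrane. Zyx, zyxin, which gathers at stress fibres under tension (chromosome 4, 71740532 to 71749386), stood at 172, 195 and 167 FPKM in BMSC, 172, 162 and 147 in shLuci, 151, 153 and 139 in shRac1, 103, 121 and 116 in shLuci+OGD and 141, 131 and 134 in shRac1+OGD. Its shLuci+OGD libraries lay below the 12 others. Vinculin (Vcl) ran from 125 to 272 FPKM, talin (Tln1) from 63.7 to 114 FPKM and Ilk from 207 to 238 FPKM. Vcl was called in 1 pair, and Tln1 and Ilk in 0.

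Csrp1, a LIM protein that binds alpha-actinin and zyxin (chromosome 13, 52553775 to 52575051), stood at 474, 657 and 532 FPKM in BMSC, 532, 498 and 482 in shLuci, 514, 547 and 537 in shRac1, 342, 382 and 359 in shLuci+OGD and 466, 455 and 488 in shRac1+OGD. Again shLuci+OGD lay below the 12 others and BMSC replicate 2 was highest. The LIM scaffolds Pdlim5 and Pdlim7 ran from 27.6 to 194 FPKM and 182 to 374 FPKM, and Filip1l from 13.9 to 31.1 FPKM, each called in 0 pairs. Srf ran from 21.3 to 30.8 FPKM, with shLuci+OGD lowest and shRac1 highest by group mean.

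With OGD, the libraries labelled shLuci had lower levels of smooth muscle actin and several of its binding partners. Acta2 fell by 1.21 (SE 0.13, limma adjusted p = 1.99e-05), Tagln by 0.95 (SE 0.14, limma adjusted p = 3.49e-04) and Smtn by 0.71 (SE 0.07, limma adjusted p = 5.16e-06), each on the log2 scale of FPKM + 0.5. Of the 34 genes, 12 fell, 1 rose and 21 were not called, beside 22.3% of all genes called (9.18% lower and 13.1% higher). The other genes that fell were Actn1 (-0.58), Actn4 (-0.57), Myl9 (-0.57), Cnn3 (-0.53), Zyx (-0.50), Csrp1 (-0.48), Cald1 (-0.46), Tpm1 (-0.33) and Actg1 (-0.29). Flnc rose by 0.62 (SE 0.20, limma adjusted p = 0.0391).

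By role, 2 of 4 actins, 5 of 12 filament regulators, 1 of 5 myosin genes, 2 of 4 crosslinkers, 1 of 4 focal adhesion genes and 1 of 4 scaffolds fell, and Srf was not called. Cnn1 and Lmod1, already low in shLuci, had log2 changes of -0.01 and -0.03. The median change of the 34 genes was -0.30, against 0.08 over all 11515 genes tested. Without BMSC replicate 2, 23 genes were lower and 2 higher (45.7% of all genes called). Leaving it out changes the spread pooled over groups and not the estimates of comparisons without BMSC. Actg2 (-0.32), Mylk (-0.37) and Srf (-0.18) were among those added. On the TPM scale, a common total for all libraries, 11 of the 13 calls remained, without Actg1 and Flnc and with Actg2 and Tagln2 added. A fit of the compared groups alone called 20. The listed stem cell markers summed to 1024 to 1065 FPKM in shLuci+OGD and 1322 to 1353 in shLuci, and the blood markers to 12.9 to 15.3 and 8.03 to 10.2. Of these, Thy1 fell by 0.49, Cd14 rose by 0.71 and the other 5 were not called. Of the 4 listed pericyte genes in the table, Abcc9 rose with OGD in shLuci from 2.23 ± 0.431 to 24.4 ± 1.73 FPKM and Kcnj8 from 1.23 ± 0.199 to 7.47 ± 0.520 (mean ± SD, n = 3 each). Mcam fell from 56.1 ± 3.97 to 42.1 ± 1.48 FPKM, and Cspg4, at 25.2 ± 1.32 and 26.4 ± 2.47, was not called. The part of these markers in the results was not tested. The call of Flnc was lost in 11 of 15 fits (adjusted p up to 0.134, without shLuci+OGD replicate 3), and that of Actg1 without shLuci replicate 1 (adjusted p = 0.0966) and without shLuci+OGD replicate 1 (adjusted p = 0.0959).

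With OGD, the libraries labelled shRac1 had lower levels of Lmod1 and Smtn, while Acta2 and Tagln were not called. Lmod1 fell by 0.32 (SE 0.06, limma adjusted p = 0.00509) and Smtn by 0.30 (SE 0.07, limma adjusted p = 0.00871). With 2 genes lower, 0 higher and 32 not called, the share of all genes called was 11.9% (4.19% lower and 7.76% higher), and 5 of the 34 were lower and 1 higher at an unadjusted p below 0.05. Acta2 changed on the log2 scale by -0.23 (SE 0.13, limma adjusted p = 0.357) and Tagln by -0.14 (SE 0.14, limma adjusted p = 0.728), which are not calls. The median change was -0.13, against 0.04 over all genes. On the TPM scale 1 gene was called, Myl9, in place of these 2, and with median-of-ratios scaling 5 were. With the compared groups fitted alone the count was 16. When BMSC replicate 2 was left out, 9 genes were lower and 3 higher (30.1% of all genes called), Tpm1 (0.20), Tpm3 (0.19) and Filip1l (0.35) being the higher ones.

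**Figure D5:**
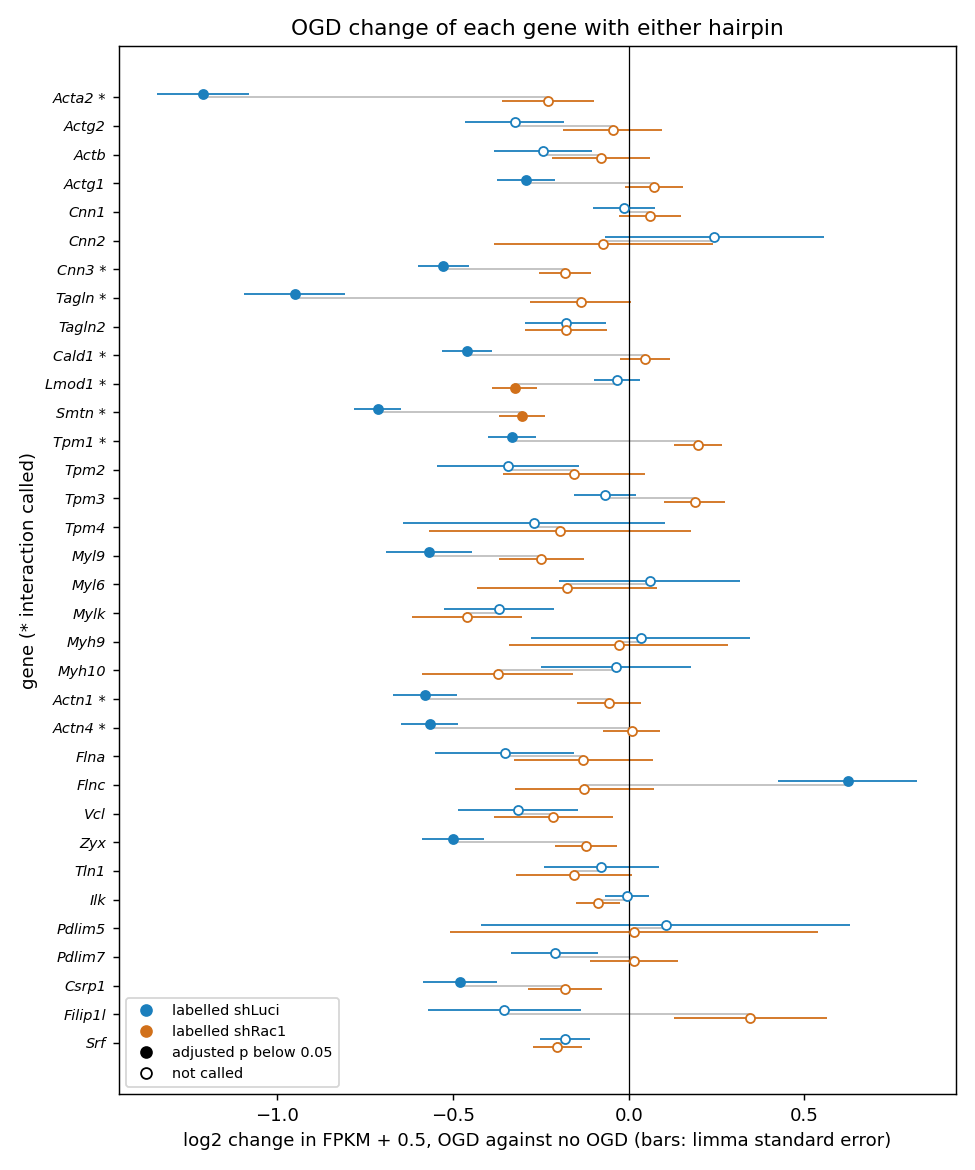
For each of the 34 genes on the y axis, points give the log2 change with OGD in the libraries labelled shLuci and in those labelled shRac1, with bars for the limma standard error, filled where called and open where not, and an asterisk marks genes whose difference between the hairpins was called. Acta2 stands at -1.21 with shLuci and -0.23 with shRac1.

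The difference between these OGD responses was tested as an interaction, the change labelled shRac1 minus the change labelled shLuci, and the plot of OGD changes sets them side by side. Acta2 differed by 0.98 (SE 0.19, limma adjusted p = 0.00241), Tagln by 0.81 (SE 0.20, limma adjusted p = 0.0146) and Actn4 by 0.57 (SE 0.11, limma adjusted p = 0.00347). Of the 34 genes, 8 had a positive difference and 1 a negative one, beside 16.7% of all genes called (8.88% positive and 7.82% negative). The other positive ones were Tpm1 (0.53), Actn1 (0.52), Cald1 (0.51), Smtn (0.41) and Cnn3 (0.35). Lmod1, with OGD changes of -0.03 in shLuci and -0.32 in shRac1, had the negative one, -0.29 (SE 0.09, limma adjusted p = 0.0477).

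The median difference of the 34 genes was 0.21, against -0.05 over all genes. On the TPM scale 7 genes were called, all positive, with Cnn3, Cald1, Lmod1, Smtn and Actn1 lost and Myl9, Zyx and Csrp1 added, and with median-of-ratios scaling 8, all positive, without Lmod1. The replicate block also called 7, without Cnn3 and Lmod1, and a fit of the 4 infected groups alone called 19. Without BMSC replicate 2, 15 differences were positive and 4 negative (36.6% of all genes called), Flnc (-0.75), Cnn2 (-0.32) and Myh10 (-0.34) joining Lmod1. Cnn3 lost its call in 11 of 15 fits (adjusted p up to 0.0922, without shLuci+OGD replicate 3) and Lmod1 in 11 of 15 fits (adjusted p up to 0.122, without shRac1+OGD replicate 3).

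Both hairpins were then set against each other after the same OGD treatment. Actg2 was higher by 1.18 (SE 0.14, limma adjusted p = 1.81e-04), Acta2 by 0.85 (SE 0.13, limma adjusted p = 0.00117), Cnn1 by 0.77 (SE 0.09, limma adjusted p = 1.31e-04) and Mylk by 0.75 (SE 0.16, limma adjusted p = 0.00929). Of the 34 genes, 14 were higher, 0 lower and 20 not called, beside 7.43% of all genes called (3.85% higher and 3.59% lower). At an unadjusted p below 0.05, 17 were higher and 0 lower. The remaining higher genes were Tagln (0.69), Tpm1 (0.62), Myl9 (0.56), Actn1 (0.48), Csrp1 (0.38), Cnn3 (0.37), Cald1 (0.37), Actn4 (0.35), Smtn (0.27) and Lmod1 (0.24). The log2 change was above 0 for 32 of the 34 genes, with a median of 0.27 against -0.05 over all genes.

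Summed over Myh11, Des, Smtn, Lmod1, Cnn1 and Actg2, a list of 6 markers of mature smooth muscle that shares 4 genes with the set, levels were 455.8 to 472.8 FPKM in shLuci+OGD and 773 to 791 in shRac1+OGD. The sum was 968 to 1258 FPKM in BMSC, 517 to 563 in shLuci and 793 to 822 in shRac1. It is made up almost wholly of the 4 shared genes, so it restates their values. Myh11 and Des, which are outside the set, are given further on, and with OGD in shLuci they went opposite ways. The listed pericyte genes Cspg4, Mcam, Kcnj8 and Abcc9 summed to 97.5 to 105 FPKM in shLuci+OGD and 101 to 111 in shRac1+OGD, while single genes went opposite ways. Abcc9 was lower in shRac1+OGD than in shLuci+OGD (12.0 ± 0.971 against 24.4 ± 1.73 FPKM), as was Kcnj8 (4.14 ± 0.265 against 7.47 ± 0.520), and Mcam was higher (62.9 ± 3.43 against 42.1 ± 1.48). The part of either cell type in these results was not tested. On the TPM scale 8 of the 14 calls remained, without Cnn3, Cald1, Lmod1, Smtn, Mylk and Actn1, and 0 were added. When BMSC replicate 2 was left out, 22 genes were higher and 0 lower (21.5% of all genes called), and without shLuci+OGD replicate 3 or without shRac1+OGD replicate 3, 9 were called. A fit of the compared groups alone called 22. Among calls lost when 1 library was left out, Csrp1 was lost in 13 of 15 fits (adjusted p up to 0.172, without shRac1+OGD replicate 3), Lmod1 in 11 of 15 fits (adjusted p up to 0.17, without shRac1+OGD replicate 1), Smtn in 6 of 15 fits (adjusted p up to 0.118, without shRac1+OGD replicate 1), Actn4 in 5 of 15 fits (adjusted p up to 0.0876, without shLuci+OGD replicate 1) and Myl9 without shLuci+OGD replicate 3 (adjusted p = 0.0609) and without shRac1+OGD replicate 3 (adjusted p = 0.0606).

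In undeprived culture, the libraries labelled shRac1 were higher than those labelled shLuci for 6 of the 34 genes and lower for 0, with 28 not called and 16.7% of all genes called (6.92% higher and 9.82% lower). Actg2 was higher by 0.90 (SE 0.14, limma adjusted p = 6.46e-04), Mylk by 0.84 (SE 0.16, limma adjusted p = 0.00218) and Flnc by 0.77 (SE 0.20, limma adjusted p = 0.0179). Cnn1 was higher by 0.69 (SE 0.09, limma adjusted p = 1.24e-04) and Lmod1 by 0.53 (SE 0.06, limma adjusted p = 8.44e-05), and Srf by 0.25 (SE 0.07, limma adjusted p = 0.028). Acta2 and Tagln had log2 changes of -0.13 and -0.12, neither called. The median of the 34 genes was 0.08, against -0.01 over all genes. Without BMSC replicate 2, 13 were higher and 4 lower (37.3% of all genes called), the lower ones being Actg1 (-0.23), Actn4 (-0.23), Tpm3 (-0.16) and Cald1 (-0.14). Of the 4 listed pericyte genes in the table, Abcc9 and Kcnj8 were higher by 2.24 and 1.75 in the libraries labelled shRac1. Summed with Cspg4 and Mcam, the 4 stood at 80.4 to 88.6 FPKM in shLuci and 82.9 to 94.3 in shRac1. The part of these genes was not tested. TPM scaling kept 4 of the 6 calls, without Flnc and Srf and with Myl9 added. With the compared groups fitted alone the count was 15. The call of Srf was lost in 5 of 15 fits (adjusted p up to 0.108, without shLuci replicate 3), and that of Flnc without shLuci replicate 1 (adjusted p = 0.0732) and without shRac1 replicate 1 (adjusted p = 0.0745).

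This comparison and that of OGD in shLuci share the shLuci libraries, so their values are only set side by side. Actg2, Cnn1 and Lmod1 differed by 0.90, 0.69 and 0.53 between the undeprived hairpins and by -0.32, -0.01 and -0.03 with OGD in shLuci, while Acta2, Tagln and Smtn differed by -0.13, -0.12 and -0.14 and by -1.21, -0.95 and -0.71.

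Relative to uninfected BMSC, the libraries labelled shLuci were lower for 6 of the 34 genes and higher for 0, beside 14.3% of all genes called (4.29% lower and 9.99% higher). Actg2 fell by 1.53 (SE 0.14, limma adjusted p = 1.75e-05), Cnn1 by 1.12 (SE 0.09, limma adjusted p = 5.12e-06), Mylk by 0.59 (SE 0.16, limma adjusted p = 0.0237) and Lmod1 by 0.50 (SE 0.06, limma adjusted p = 2.44e-04). Acta2 (-0.43) and Tpm1 (-0.37) fell less. The median of the 34 genes was -0.09, against a shift of 0.11 over all genes that median-of-ratios scaling removes. With that scaling 9 genes were lower and 0 higher, and on the TPM scale 7 were lower and 1 higher. The latter kept 4 of the 6 calls, without Tpm1 and Mylk, and added Tagln2, Tpm2, Myl9 and Pdlim7. When BMSC replicate 2 was left out, 16 were lower and 2 higher (32.0% of all genes called), and Acta2 changed by -0.30 (SE 0.09, limma adjusted p = 0.0288). A fit of the compared groups alone called 2, without Acta2, Lmod1, Tpm1 and Mylk. The call of Acta2 was lost in 11 of 15 fits (adjusted p up to 0.158, without shLuci replicate 3), and that of Mylk in 5 of 15 fits (adjusted p up to 0.0814, without shLuci replicate 1).

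The libraries labelled shRac1 were lower than BMSC for 4 of the 34 genes and higher for 0, beside 10.7% of all genes called (4.31% lower and 6.39% higher). Actg2 fell by 0.63 (SE 0.14, limma adjusted p = 0.0119), Acta2 by 0.56 (SE 0.13, limma adjusted p = 0.0151), Cnn1 by 0.43 (SE 0.09, limma adjusted p = 0.00694) and Tpm1 by 0.28 (SE 0.07, limma adjusted p = 0.0224). The median was -0.09, against 0.09 over all genes. TPM scaling kept 3 of the 4 calls, without Tpm1 and with Tagln and Pdlim7 added. The count was 8 lower and 1 higher without BMSC replicate 2 (21.1% of all genes called), 6 lower and 2 higher without BMSC replicate 1, and 2 without shRac1 replicate 1 or without shRac1 replicate 3. With the compared groups fitted alone the count was 0, with 3 at an unadjusted p below 0.05. The call of Acta2 was lost without shRac1 replicate 1 (adjusted p = 0.0531) and without shRac1 replicate 3 (adjusted p = 0.0692), and that of Tpm1 in 4 of 15 fits (adjusted p up to 0.0819, without shRac1 replicate 2).

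Set against BMSC, the libraries labelled shRac1+OGD were lower for 8 of the 34 genes and higher for 0, beside 13.5% of all genes called (3.53% lower and 9.94% higher). Acta2 fell by 0.79 (SE 0.13, limma adjusted p = 0.00192), Actg2 by 0.68 (SE 0.14, limma adjusted p = 0.00753) and Tagln by 0.55 (SE 0.14, limma adjusted p = 0.0249). Smtn (-0.40), Zyx (-0.39), Cnn1 (-0.37), Lmod1 (-0.29) and Cnn3 (-0.27) fell less. The median was -0.11, against a shift of 0.15 over all genes. On the TPM scale 4 of the 8 calls remained, without Cnn3, Lmod1, Smtn and Zyx, and Tpm2 and Myl9 were added. Without BMSC replicate 2, 13 were lower and 0 higher (26.3% of all genes called), and Tagln changed by -0.36 (SE 0.08, limma adjusted p = 0.00613). The count was 13 without BMSC replicate 1 as well, and 5 without shRac1+OGD replicate 1, 2 or 3. A fit of the compared groups alone called 0, with 7 at an unadjusted p below 0.05. Calls lost were those of Cnn3 in 4 of 15 fits (adjusted p up to 0.0976, without shRac1+OGD replicate 1), Tagln in 3 of 15 fits (adjusted p up to 0.09, without shRac1+OGD replicate 2), Cnn1 without shRac1+OGD replicate 1 (adjusted p = 0.0655), Lmod1 without shRac1+OGD replicate 3 (adjusted p = 0.053) and Zyx without shRac1+OGD replicate 2 (adjusted p = 0.0565).

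The libraries labelled shLuci+OGD were lower than those labelled shRac1 for 17 of the 34 genes and higher for 0, beside 15.7% of all genes called (5.01% lower and 10.7% higher). This pair differs in both the hairpin and OGD, which cannot be told apart in it. Actg2 fell by 1.22 (SE 0.14, limma adjusted p = 9.03e-05), Mylk by 1.21 (SE 0.16, limma adjusted p = 2.17e-04) and Acta2 by 1.08 (SE 0.13, limma adjusted p = 1.34e-04), followed by Tagln (-0.83), Myl9 (-0.80) and Cnn1 (-0.71). The others lay between -0.57 (Lmod1 and Smtn) and -0.32 (Cald1). The median was -0.40, against 0.10 over all genes, and the log2 change was below 0 for 33 of the 34. When BMSC replicate 2 was left out, 25 were lower and 0 higher (37.4% of all genes called). TPM scaling kept 15 of the 17 calls, without Cald1 and Vcl and with Tpm2 added. Vcl lost its call in 12 of 15 fits (adjusted p up to 0.144, without shRac1 replicate 1), Actn4 without shRac1 replicate 1 (adjusted p = 0.0614) and without shLuci+OGD replicate 1 (adjusted p = 0.0565) and Zyx without shRac1 replicate 2 (adjusted p = 0.0503).

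Over the whole set, 2 orders of the libraries recurred, both picked out after the values were seen and given as a description. In 15 of the 34 genes (44.1%) the 3 shLuci+OGD libraries lay below the 12 others, as they did in 3.47% of all genes tested. These were Acta2, Actg2, Cnn3, Tagln, Cald1, Smtn, Tpm1, Tpm2, Myl9, Mylk, Actn1, Actn4, Zyx, Csrp1 and Srf. In 5 genes (14.7%), Actg2, Cnn1, Lmod1, Tpm1 and Mylk, both shLuci groups lay below the 9 other libraries, against 0.426% of all genes. In all, 17 genes were called in at least 2 of the 8 pairs, 2 in 1 (Actg1 and Vcl) and 15 in 0.

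The authors' deposited tables hold lists of changed genes for 6 pairs of groups, none of which sets an OGD group against its own hairpin without OGD. In the authors' deposited table of shRac1+OGD against shLuci+OGD, 6 of the 34 genes were listed as higher out of 317, namely Actg2, Acta2, Cnn1, Tagln, Mylk and Tpm1, and 0 of 241 as lower. The q-values of these 6 in the authors' deposited table ran from 0.00318 to 0.0192. The expression table that these lists draw on holds 12169 genes. The authors' deposited table of shLuci+OGD against shRac1 listed 6 as lower out of 359 (Actg2, Acta2, Mylk, Tagln, Myl9 and Cnn1) and 0 of 455 as higher. In the authors' deposited table of shLuci against shRac1, 4 of 545 were lower (Actg2, Flnc, Mylk and Cnn1) and 0 of 615 higher. The authors' deposited tables against BMSC listed Actg2 and Cnn1 as lower in shLuci (2 of 199) and Actg2 as lower in shRac1 (1 of 224). They listed Acta2 and Actg2 as lower in shRac1+OGD (2 of 178), and 0 of the 34 genes as higher in any of these groups. Of these 5 listings in the authors' deposited tables, Cnn1 had a q-value below 0.05 (0.0354). Actg2 had 0.0709 for shLuci, 0.359 for shRac1 and 0.266 for shRac1+OGD, and Acta2 0.109, in the authors' deposited tables.

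Upstream of these genes, 26 regulators of SRF and of the GTPase RhoA, which drives stress fibre assembly, were looked up, and 22 were tested. In the libraries labelled shRac1+OGD against shLuci+OGD, 0 of these 22 were called by limma beside 7.43% of all genes, and 4 had an unadjusted p below 0.05. With OGD in shLuci 1 was higher and 2 lower, beside 22.3% of all genes called, and with OGD in shRac1 2 were higher and 2 lower, beside 11.9%. When BMSC replicate 2 was left out, these counts became 2 higher and 2 lower (21.5% of all genes called), 7 and 5 (45.7%), and 4 and 5 (30.1%), in that order. In the fit of all 15 libraries, those called with OGD in shLuci were Fhl2, which was the higher one, Rhob and Rock1. Those called with OGD in shRac1 were Rhob, Limk2, Fhl2 and Tgfb1. Rhob, a RhoA relative, fell by 0.43 and 0.86 in these OGD comparisons. Myocd, the cofactor of SRF in smooth muscle, ran from 0.717 to 6.04 FPKM, with its lowest value in BMSC replicate 2, and was not called in any of the 8 pairs. It lay at 0.717 to 4.91 FPKM in BMSC, 2.00 to 3.19 in shLuci and 5.64 to 6.04 in shRac1. With OGD it lay at 3.26 to 4.50 FPKM in shLuci and 3.14 to 3.66 in shRac1. For shRac1 against shLuci without OGD, 3 of the 22 regulators were higher and 3 lower, beside 16.7% of all genes called. Without BMSC replicate 2, 8 were higher and 4 lower (37.3%).

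A further 40 contractile and focal adhesion genes outside the set were looked up, and 35 were tested. With OGD in shLuci 6 were higher and 9 lower, beside 13.1% and 9.18% of all genes. In shRac1+OGD against shLuci+OGD 7 were higher and 3 lower, beside 3.85% and 3.59%. When BMSC replicate 2 was left out, these counts became 11 higher and 14 lower (45.7% of all genes called), and 15 and 5 (21.5%). Myh11, the myosin heavy chain of smooth muscle, stood at 12.7 ± 0.873 FPKM in BMSC, 7.27 ± 0.235 in shLuci, 7.88 ± 0.717 in shRac1, 3.59 ± 0.278 in shLuci+OGD and 11.1 ± 0.214 in shRac1+OGD (mean ± SD, n = 3 each). It fell by 0.93 (SE 0.09, limma adjusted p = 5.52e-06) with OGD in shLuci and rose by 0.47 (SE 0.09, limma adjusted p = 0.00305) with OGD in shRac1. In shRac1+OGD it was 2.84 times (95% confidence interval 2.49 to 3.23, limma adjusted p = 4.87e-07) that in shLuci+OGD. Des, desmin, the intermediate filament of muscle, went the other way at low levels, between 0.263 and 3.30 FPKM, and rose by 2.10 (SE 0.14, limma adjusted p = 2.22e-07) with OGD in shLuci. Parvb, a parvin of focal adhesions, rose with OGD by 1.62 in shLuci and by 0.47 in shRac1.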

How the data were processed

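The 15 libraries were grouped by their titles. The submitters' processing notes name HISAT2 and StringTie 1.2.3 without a role, and no source used here names the genome build. Values are FPKM, per the file headers of the deposited table, so read depth is unknown and no interval for counting error could be given. Whether strand was used is not stated, so reads of overlapping genes cannot be told apart. The authors' deposited lists hold, per the file headers, log2 fold changes, a ratio (fold), p-values and q-values, and do not name their test.

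Tests ran on log2(FPKM + 0.5), a scale that understates the change of low genes, for the 11515 of 12169 genes that reached 1 FPKM in 3 or more libraries. A single limma model (version 3.58.1, R 4.3.3, lmFit and eBayes with a trend) held 5 group means over all 15 libraries and left 10 residual degrees of freedom. Two-sided p-values were adjusted by Benjamini and Hochberg across every gene tested, and "called" means an adjusted p below 0.05. The model was tested on simulated normal values with the pooled spread of each gene, which do not mimic an outlying library. For OGD in shLuci it recovered 21 of 50 changes of 0.5 log2 units, 34 of 50 of 1 and 47 of 50 of 2. A gene that was not called may thus still have changed by such sizes. Of 11315 unchanged genes it called 12.

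The 34 genes and the further gene lists were chosen with earlier results of these data known. Values in every library are given for up to 16 genes called in at least 2 of 8 pairs, those with the widest range of group means, and for Acta2, Actb and Actg1. Other settings tried were pseudocounts of 1 and 0.1, no filter, the TPM scale (a common total), median-of-ratios scaling, the compared groups alone, a replicate block and leaving out each library. Promoter windows came from RefSeq (GRCr8).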

Additional observations from a re-analysis of the deposited data

Results flagged for a closer look

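For 9 of the 34 genes the change with OGD differed between the libraries labelled shRac1 and those labelled shLuci, by limma's interaction term with adjustment over all 11515 genes. The difference, shRac1 minus shLuci, was 0.98 on the log2 scale for Acta2, 0.81 for Tagln, 0.57 for Actn4, 0.53 for Tpm1 and 0.52 for Actn1. It was 0.51 for Cald1, 0.41 for Smtn and 0.35 for Cnn3, and -0.29 for Lmod1. All 3 shRac1+OGD libraries lay above all 3 shLuci+OGD libraries in each of these 9 genes. This order concerns the hairpins after OGD and not the difference between their OGD changes, and Lmod1 shows it with a negative difference. The share of all genes with this order is not given here. With a TPM scale 4 of the 9 calls remained, those of Acta2, Tagln, Tpm1 and Actn4. The direction rests on the labels, since Rac1 was not detectably reduced in the libraries labelled shRac1.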

How the results depend on the processing

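Pseudocounts of 1 and 0.1 and no filter left every count of called genes within 1.5 times its value. Over the 79 calls of single genes and 20 settings (pseudocounts, both scalings, the replicate block and leaving out each library), 1420 of 1580 values kept the call, 160 lost it and 0 turned the direction. Leaving out a library outside the compared groups does not change the estimate, so the direction could not turn in those fits. The pseudocounts also hardly move genes at these levels, so the tally does not measure how firm a direction is. Of the same 79 calls, no filter kept 79 and the compared groups alone kept 63, and the 16 lost were all against BMSC. A fit of the compared groups alone moved the counts to 2 (shLuci against BMSC), 0 (shRac1 against BMSC, 3 at an unadjusted p below 0.05), 15 (shRac1 against shLuci), 20 (OGD in shLuci), 16 (OGD in shRac1), 22 (shRac1+OGD against shLuci+OGD), 0 (shRac1+OGD against BMSC, 7 at an unadjusted p below 0.05) and 19 (interaction). Such fits pool no spread with the other groups. The share of all genes called in them is not given here, so these counts are not set against all genes. The TPM scale gave 8 for shRac1+OGD against shLuci+OGD and 1 for OGD in shRac1, and median-of-ratios scaling gave 5 for the latter, and the cause was not tested. The log2 change of Rac1 after OGD was 0.044 with median-of-ratios scaling in place of a value just under 0 (limma adjusted p = 0.978), and the cause was not tested.

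Leaving out each library in turn, the counts ran from 4 to 18 (shLuci against BMSC), 2 to 9 (shRac1 against BMSC), 4 to 17 (shRac1 against shLuci), 11 to 25 (OGD in shLuci), 2 to 12 (OGD in shRac1), 9 to 22 (shRac1+OGD against shLuci+OGD), 15 to 25 (shLuci+OGD against shRac1), 5 to 13 (shRac1+OGD against BMSC) and 7 to 19 (interaction). The highest of each came without BMSC replicate 2, and for shRac1+OGD against BMSC also without BMSC replicate 1.

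With a replicate block the counts were 5, 4, 5, 13, 2, 13, 16, 8 and 7 in the same order, each within 1.5 times. The replicate numbers share only a number. Deviations of same-numbered libraries correlated between -0.64 and 0.56, over 0.1 in 11 of 30 pairs, and 5 of 15 libraries correlated best with their own number. FPKM keep no depth, so what depth limits is unknown, and low genes such as Mylk are the least certain.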
